A study of Drosophila melanogaster with 24 samples.

Results

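Neuropeptides are short signalling molecules that neurons cut from larger precursor proteins, store in dense core vesicles and release to act on G protein-coupled receptors of other cells. In the fly brain each precursor gene is transcribed in its own set of neurons, some of them small, and the peptides set feeding, sleep, daily activity, stress responses and social behaviour. The 9 precursor genes described here were chosen by name as neuropeptides of brain neurons, by a rule that uses no measured value but was written with earlier results of these data known, and all 9 were found among the 17637 genes of the tables. They are Pdf (pigment-dispersing factor), sNPF (short neuropeptide F), NPF (neuropeptide F), Tk (tachykinin), AstA and AstC (allatostatins A and C), Dh31 and Dh44 (diuretic hormones) and Mip (myoinhibitory peptide).

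Poly(A) RNA was sequenced from whole heads of old (55 days) and young (5 days) Drosophila melanogaster females of the strain w[1118], a white-eyed stock mutant for the gene white. Both ages were kept in 12 h of light and 12 h of darkness with no other treatment. Heads were collected at 6 times of day, every 4 h from Zeitgeber time (ZT, hours after lights on) 0 to 20, with 2 replicates per age and time, giving 12 old and 12 young libraries. Values are FPKM, read fragments normalized to transcript length and to the total mapped, after all libraries were brought to a common scale by their median ratio (scaled FPKM), and are therefore per unit of transcript length.

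The 9 genes lie on 3 chromosome arms of genome release BDGP6 (dm6). On arm 3R are Pdf (chr3R:26455462-26456141, minus strand, a single exon), NPF (chr3R:16609220-16611325, plus strand), Tk (chr3R:11994175-12005473, minus strand), AstA (chr3R:24760530-24765071, minus strand) and Dh44 (chr3R:9638182-9650706, plus strand). On arm 2L are sNPF (chr2L:20027915-20056373, plus strand), AstC (chr2L:11076165-11081399, minus strand) and Dh31 (chr2L:8491868-8506845, minus strand), and on arm 3L is Mip (chr3L:17344947-17349666, minus strand). Their merged exons span 599 bases in NPF to 2447 bases in sNPF. Other genes overlap the spans of 3 members, with 0 shared exonic bases in each case. Bace, on the same strand within Dh31, reached at most 0.549 FPKM, and Fst, on the other strand of Dh44, at most 0.0624 FPKM. Ect3, on the other strand of Tk, was at 9.46 to 16.7 FPKM in old and 13.6 to 25.0 FPKM in young heads, and the library kit preserved strand.

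All 9 precursors were well detected in every library, and their levels spanned a similar range at both ages. In old heads the order by mean scaled FPKM was sNPF (81.2), Pdf (68.0), Dh31 (56.1), NPF (40.4), AstC (31.1), Mip (27.7), Dh44 (19.8), AstA (17.1) and Tk (13.6). In young heads it was sNPF (84.8), Pdf (74.7), Dh31 (50.1), AstC (30.5), NPF (22.4), Dh44 (19.5), Mip (19.4), Tk (18.1) and AstA (13.5). In old heads the ranges of all neighbours in this order overlapped. In young heads the ranges of Pdf and Dh31, and of Dh31 and AstC, did not overlap, and those of the other neighbours did. NPF stood above AstC and Mip above Dh44 in all 12 old libraries, whereas in young heads AstC stood above NPF in 11 libraries and Dh44 above Mip in 6.

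The first question was which peptide precursors differed in level between old and young heads. NPF, Mip and AstA were higher in old heads, Tk was lower, and the other 5 did not pass the test, which was limma's moderated test on log2(scaled FPKM + 1) at a Benjamini-Hochberg adjusted P of at most 0.01 over 9771 genes. The 4 of 9 members called stand beside 41.5% of all genes tested. By direction, 3 of 9 were higher, beside 20.4% of all genes, and 1 of 9 was lower, beside 21.1%. The median log2 fold change, old minus young, was 0.020 over the 9 members and 0.022 over all genes tested. The P values measure the spread between these libraries.

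**Figure D1:**
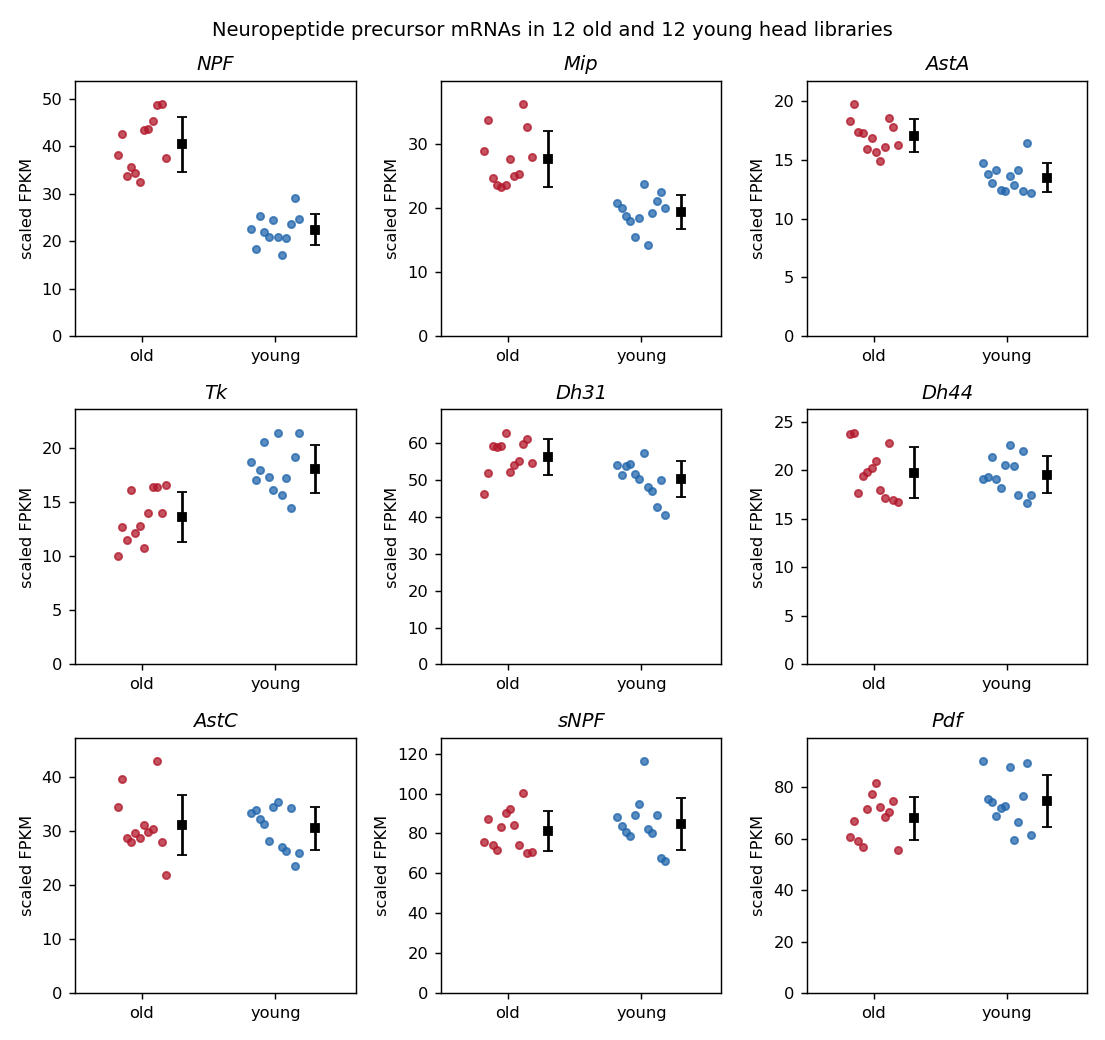
Scaled FPKM (y axis, from 0) of each precursor in the 12 old (red, left) and 12 young (blue, right) libraries, with the mean and SD of each age in black. The old NPF points (32.5 to 48.8) all lie above the young ones (17 to 29.1), while the points of the 2 ages overlap for the other 8 genes.

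NPF, the fly relative of mammalian neuropeptide Y, is known for its part in feeding and reward. It was at 32.5, 40.3 and 48.8 scaled FPKM (lowest, median, highest) in old libraries and at 17, 22.2 and 29.1 in young libraries. The ranges did not overlap, a separation in the same direction that 4.63% of all genes tested had, and both old libraries were above both young ones at all 6 times of day, as in 10.3% of genes. The mean was 40.4 ± 5.78 in old and 22.4 ± 3.26 in young heads (SD, n = 12 each). Its log2 fold change was 0.82 (SE 0.080, limma adjusted P = 4.26e-09). The ratio of old to young means was 1.97 at ZT 0, 1.47 at ZT 4, 1.48 at ZT 8, 2.30 at ZT 12, 2.12 at ZT 16 and 1.61 at ZT 20. With any single library or either daily cycle left out, its log2 fold change stayed between 0.78 and 0.86.

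Mip encodes the myoinhibitory peptides, also called B-type allatostatins, which act on the receptor SPR and are known for a role in sleep. Its scaled FPKM was 23.3, 26.5 and 36.2 (lowest, median, highest) in old libraries and 14.2, 19.6 and 23.7 in young libraries. The ranges overlapped over a narrow stretch, with 9 of 12 old libraries above the highest young one, and both old libraries were above both young ones at all 6 times. Its log2 fold change was 0.49 (SE 0.081, limma adjusted P = 1.37e-05), and the ratio of old to young means lay between 1.31 at ZT 4 and 1.53 at ZT 0.

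AstA, whose peptides inhibit feeding and take part in sleep control, was at 14.9, 17.1 and 19.7 scaled FPKM in old libraries and at 12.2, 13.3 and 16.4 in young libraries. Of the old libraries, 7 lay above the highest young one, and at 5 of 6 times both old libraries were above both young ones, ZT 20 being the exception. Its log2 fold change was 0.32 (SE 0.049, limma adjusted P = 4.52e-06). The log2 fold change was 0.25 without the second daily cycle, and AstA then missed the threshold (limma adjusted P = 0.0136).

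Tk encodes the tachykinins, which act in aggression, olfaction and locomotion. It was the one member called lower in old heads, with 10.1, 13.4 and 16.6 scaled FPKM in old libraries and 14.4, 17.6 and 21.4 in young libraries. In 8 of 12 old libraries Tk lay below the lowest young value, and at 5 of 6 times both old libraries were below both young ones. At ZT 16, the remaining time, the 2 old libraries were both at 16.4 and the young ones at 17.2 and 14.4. The log2 fold change was -0.39 (SE 0.081, limma adjusted P = 0.000232). This call depended on the first daily cycle, since without it the log2 fold change was -0.23 (limma adjusted P = 0.123), and it also depended on the scaling described below.

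Among the 5 members without a call, Dh31 came closest. Dh31, related to calcitonin gene-related peptide and known from clock neurons and the gut, was at 46.1, 57.0 and 62.8 scaled FPKM in old libraries and at 40.6, 50.8 and 57.2 in young libraries (log2 fold change 0.16, limma adjusted P = 0.0163). It passed the threshold when the first-cycle old library at ZT 0 (adjusted P = 0.00419) or the first-cycle young library at ZT 12 (adjusted P = 0.0082) was left out. Its limma log2 fold change was 0.078 without the second daily cycle (adjusted P = 0.456), 0.25 without the first (adjusted P = 0.0314) and 0.071 with the adjustment for transcript length described below (adjusted P = 0.363). Pdf, the transmitter by which the ventral lateral clock neurons keep the clock network in step, was at 55.8, 69.5 and 81.8 in old and 59.7, 73.6 and 90.2 in young libraries. Its log2 fold change was -0.13, with a 95% interval of -0.28 to 0.023 (limma adjusted P = 0.148).

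The values of sNPF, AstC and Dh44 overlapped widely between the ages. For sNPF, which is widespread in the brain and acts in feeding and growth, the median was 79.5 in old and 83 in young libraries, and the 95% interval of the log2 fold change was -0.21 to 0.10. For AstC, a relative of somatostatin, the medians were 29.8 in old and 31.8 in young libraries, with an interval of -0.16 to 0.20. For Dh44, related to corticotropin-releasing factor, they were 19.6 in old and 19.2 in young libraries, with an interval of -0.12 to 0.15.

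These comparisons rest on the common scale. Relative to that scale the deposited values of old libraries were higher by 0.22 on the log2 scale on average. On the values as deposited, 5 members were called higher (NPF, Mip, AstA, Dh31 and Dh44), none was called lower and Tk had a log2 fold change of -0.18 (limma adjusted P = 0.0581), while 43.5% of all genes were called higher and 10.8% lower. NPF, Mip and AstA were called higher under each scaling tried.

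Whole heads also hold glia, photoreceptors, fat body and muscle, and the RNA of a gene confined to few neurons is a small part of the total. Neuron markers were lower in old heads in 11 of 11 genes tested, beside 21.1% of all genes. Their median log2 fold change was -0.62. Their summed level was 1774 to 2396 scaled FPKM in old against 3238 to 4497 in young libraries. Syt1, a calcium sensor of synaptic vesicles, and para, the voltage-gated sodium channel, had log2 fold changes of -1.09 and -0.83. In these bulk samples, fewer cells of a type and less RNA per cell cannot be told apart. When the libraries were scaled to the neuron markers instead, all 9 precursors were called higher in old heads, Tk included (log2 fold change 0.26), and so were 79.7% of all genes, with 2.03% lower. The part of these neuronal markers in the peptide differences was not tested.

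**Figure D2:**
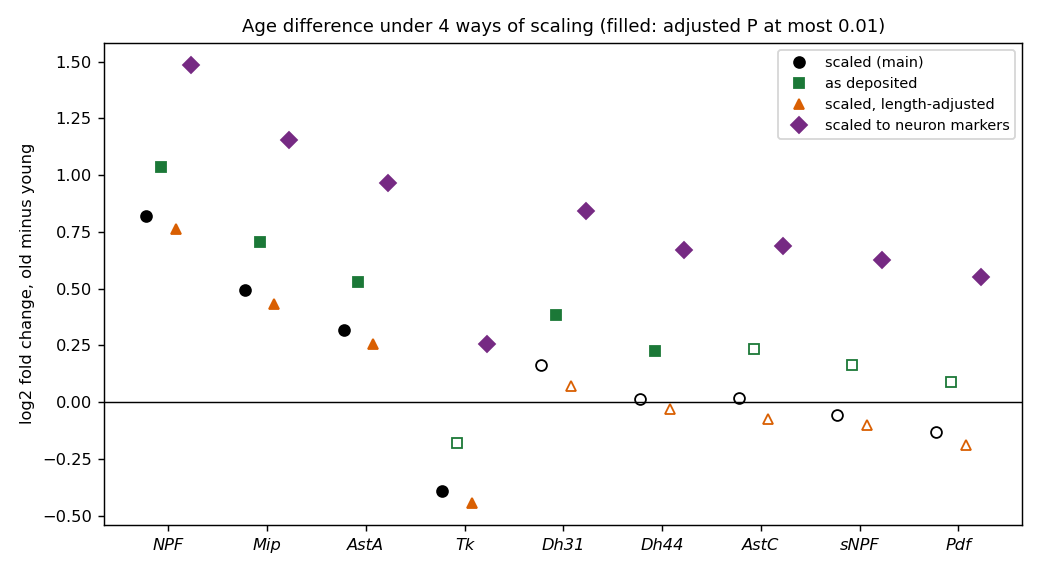
Log2 fold change, old minus young, of each precursor (y axis) under 4 ways of putting the libraries on one scale, with filled symbols for an adjusted P of at most 0.01. NPF, Mip and AstA are filled and above 0 under all 4, whereas Tk runs from -0.44 with a length adjustment to 0.26 when scaled to neuron markers.

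Several of these peptides are also made by endocrine cells of the midgut. Of 8 midgut markers checked here, 6 were below 1 FPKM in every library, all of them trypsins or Jonah proteases, including alphaTry. The other 2, of which LManII is a mannosidase, were expressed above that level, tested and not called. The summed midgut markers were at 42.9 to 74.5 scaled FPKM in old and 38.7 to 60.5 in young libraries. Of the other cell types, 3 of 5 fat body markers and 2 of 6 muscle markers tested were lower in old heads and none was higher. Glia markers were called higher in 1 and lower in 3 of 6 genes, and photoreceptor markers higher in 3 and lower in 4 of 10. Of all genes tested, 20.4% were called higher and 21.1% lower. The summed fat body markers, dominated by yolk proteins, were at 5012 to 9571 scaled FPKM in old and 12110 to 29589 in young libraries, and the part of these cell types in the peptide differences was not tested.

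Genes listed as receptors of the 9 peptides, in part by their names, were taken as the next step of each pathway. Which peptide each receptor binds was not tested. Of 13 receptor genes, 12 had a mean above 1 FPKM at either age and were tested, and 8 of them were lower in old heads while 0 were higher, beside 21.1% of all genes lower and 20.4% higher. The median log2 fold change of the 12 receptors was -0.33. The count of 8 fell to 5 without the first daily cycle, a fit on fewer libraries. In that fit 1129 of 9780 genes were called lower, against 2058 of 9771 with all libraries. On the values as deposited 5 receptors were called lower, and with scaling to the neuron markers none was lower and 6 were higher.

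**Figure D3:**
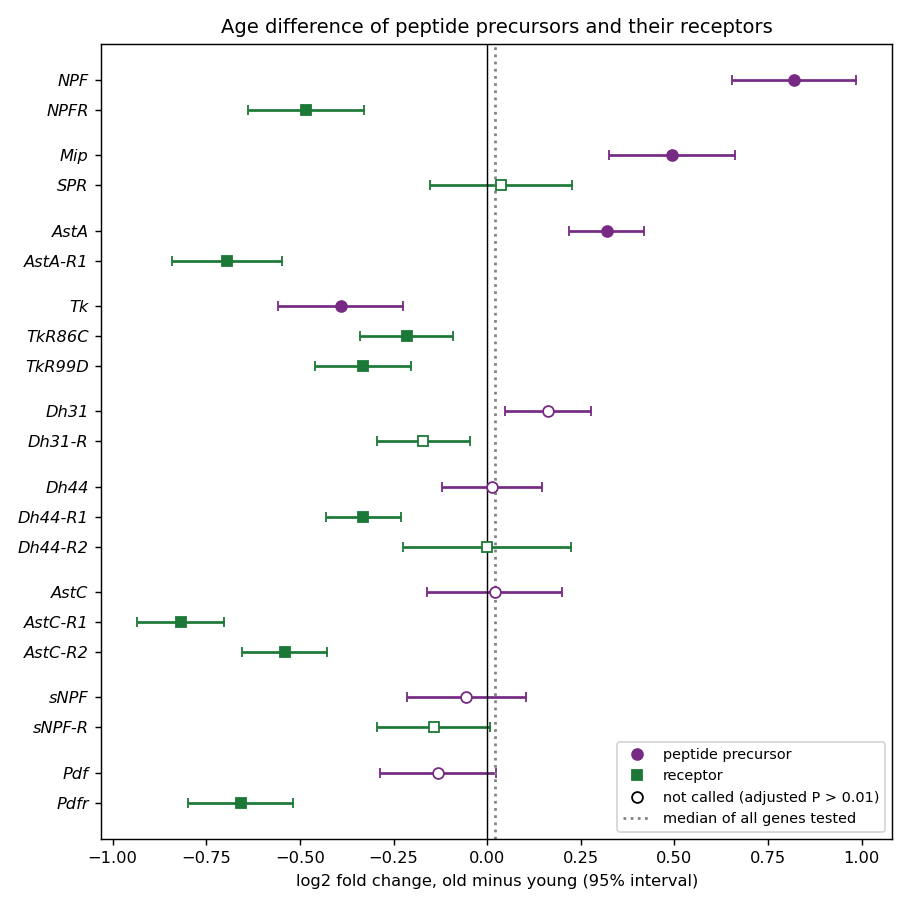
Log2 fold change, old minus young (x axis), with 95% intervals for each precursor (purple circles) and, below it, its tested receptors (green squares), with open symbols where the adjusted P was over 0.01. NPF at 0.82 stands above 0 and its receptor NPFR at -0.48 below it, and AstA and AstA-R1 are likewise on opposite sides. Tk and the 2 genes named as tachykinin receptors are all below 0.

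For 2 of the 3 precursors that were higher, the tested receptor was lower in old heads. NPFR, the receptor of NPF, was at 0.713, 1.24 and 1.67 scaled FPKM (lowest, median, highest) in old libraries and at 1.75, 1.94 and 3.03 in young libraries. Its log2 fold change was -0.48 (limma adjusted P = 6.22e-06). These scaled values did not overlap, a separation in that direction that 7.11% of all genes tested had. As deposited, NPFR overlapped between the ages, at 0.804 to 1.76 FPKM in old and 1.57 to 2.77 in young libraries. AstA-R1 was at 7.23, 9.69 and 11.5 scaled FPKM in old and 13.1, 16.2 and 20.4 in young libraries (log2 fold change -0.70, limma adjusted P = 9.6e-09). Its ranges did not overlap on the scaled or the deposited values. AstA-R2 was below 1 FPKM in every library and was not tested. SPR, the receptor shared by Mip and the male seminal sex peptide, had medians of 16.2 in old and 16.0 in young libraries and was not called (log2 fold change 0.037, 95% interval -0.15 to 0.23).

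Both genes named as tachykinin receptors were lower on the scaled values, as was Tk, whose call was lost on the deposited values. The log2 fold changes were -0.33 for TkR99D (limma adjusted P = 7.81e-05) and -0.22 for TkR86C (limma adjusted P = 0.00425). The receptors of peptides whose own level was not called differed among themselves. AstC-R1 had the lowest adjusted P of the 12 receptors tested, at 14.5, 17.7 and 20.7 in old and 28.3, 31.1 and 40 in young libraries (log2 fold change -0.82, limma adjusted P = 7.37e-12), and AstC-R2 had a log2 fold change of -0.54. Pdfr, the receptor by which clock neurons sense Pdf, was at 13.2, 17.5 and 19.8 in old and 21.9, 27.7 and 30.7 in young libraries (log2 fold change -0.66, limma adjusted P = 1.07e-08), while Pdf itself overlapped between the ages. Dh44-R1 was lower (-0.33) and Dh44-R2 was not called (-0.0011). Dh31-R (-0.17, limma adjusted P = 0.02) and sNPF-R (-0.14, limma adjusted P = 0.106) were not called. With time of day as a factor Dh31-R was called lower (limma adjusted P = 0.000232), beside 2388 of 9771 genes called lower in that fit. Both old libraries of Dh31-R were below both young ones at all 6 times on the scaled values. As deposited, its means were 4.31 in old and 4.26 in young libraries.

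**Figure D4:**
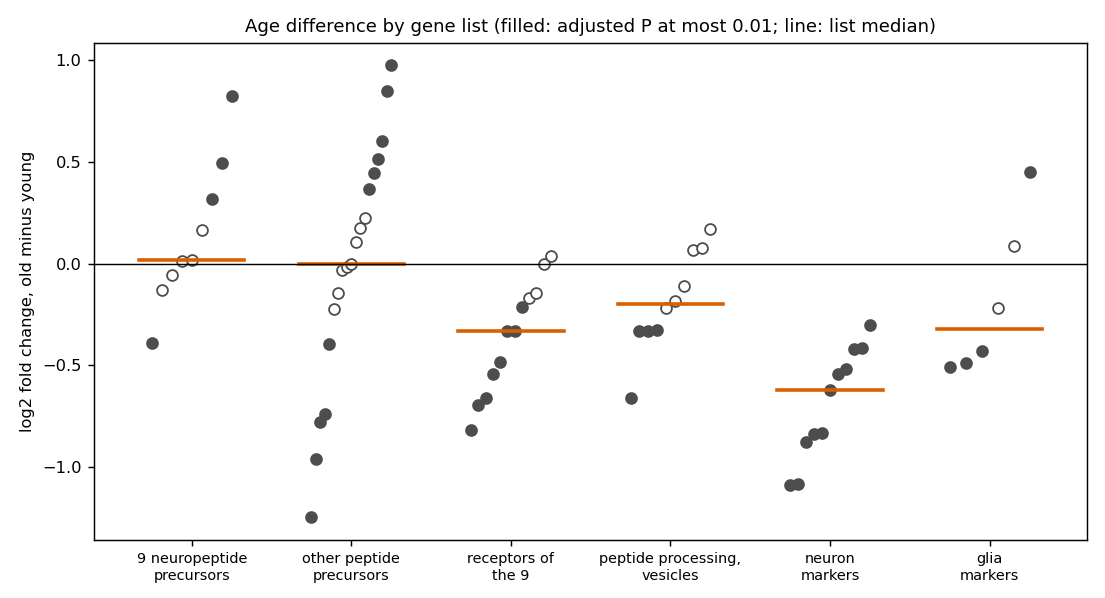
Log2 fold change, old minus young (y axis), of every tested gene in 6 lists, sorted within each list, with filled points for an adjusted P of at most 0.01 and an orange line at the list median. The medians are 0.020 for the 9 precursors, -0.0027 for the other precursors, -0.33 for the receptors, -0.20 for processing and vesicle genes, -0.62 for neuron markers and -0.32 for glia markers.

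Precursors and receptors also differ in transcript length. The merged exons of the tested receptors span 2475 to 4746 bases, longer than those of any member. Those of the 10 neuron markers with a known length span 2282 to 23308 bases. Among all genes tested, the 2401 longest, from 3472 bases up, were called lower in 38.2% and higher in 15.7% of cases, against 10.4% lower and 17.8% higher among the 2403 shortest, up to 1176 bases. Of the 4935 genes within the length range of the members, 23.6% were higher and 14% lower. After the median deviation of genes of like length was removed from each library, an alternative added after seeing the data, the counts were 3 members higher, beside 20.3% of all genes, 1 lower and 8 receptors lower, beside 20.5%, the same counts as before, and NPF had a log2 fold change of 0.76.

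Genes that process and release peptides were examined as the machinery common to all 9. Of 11 such genes, 10 were tested, 0 were higher and 4 were lower in old heads, beside 20.4% of all genes higher and 21.1% lower. The 4 were Cadps, which primes dense core vesicles for release, with 84.5, 95.2 and 117 scaled FPKM in old and 122, 154 and 200 in young libraries (log2 fold change -0.66, limma adjusted P = 1.27e-08), svr, a carboxypeptidase that trims cut peptides (-0.32), amon, the prohormone convertase that cuts precursors (-0.33), and 7B2, the helper protein of amon (-0.33). The median of the 10 was -0.20. With time of day as a factor Phm, from the same list, was called higher (log2 fold change 0.17, limma adjusted P = 0.00098), beside 2377 of 9771 genes called higher in that fit.

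The second question was whether the precursors varied with time of day. A gene was called rhythmic when the 24 h cosine and sine terms passed limma's F test at an adjusted P of at most 0.05 and the highest library was at least 1.5 times the lowest, which 9.73% of genes did in old and 8.33% in young heads. In old heads NPF was the single member called, and in young heads 0 of 9 were called by limma, with 0 of 9 at an unadjusted P of 0.05 or less (the smallest was 0.0583, for sNPF), beside 21.6% of genes that met that P and the same limit on the ratio.

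**Figure D5:**
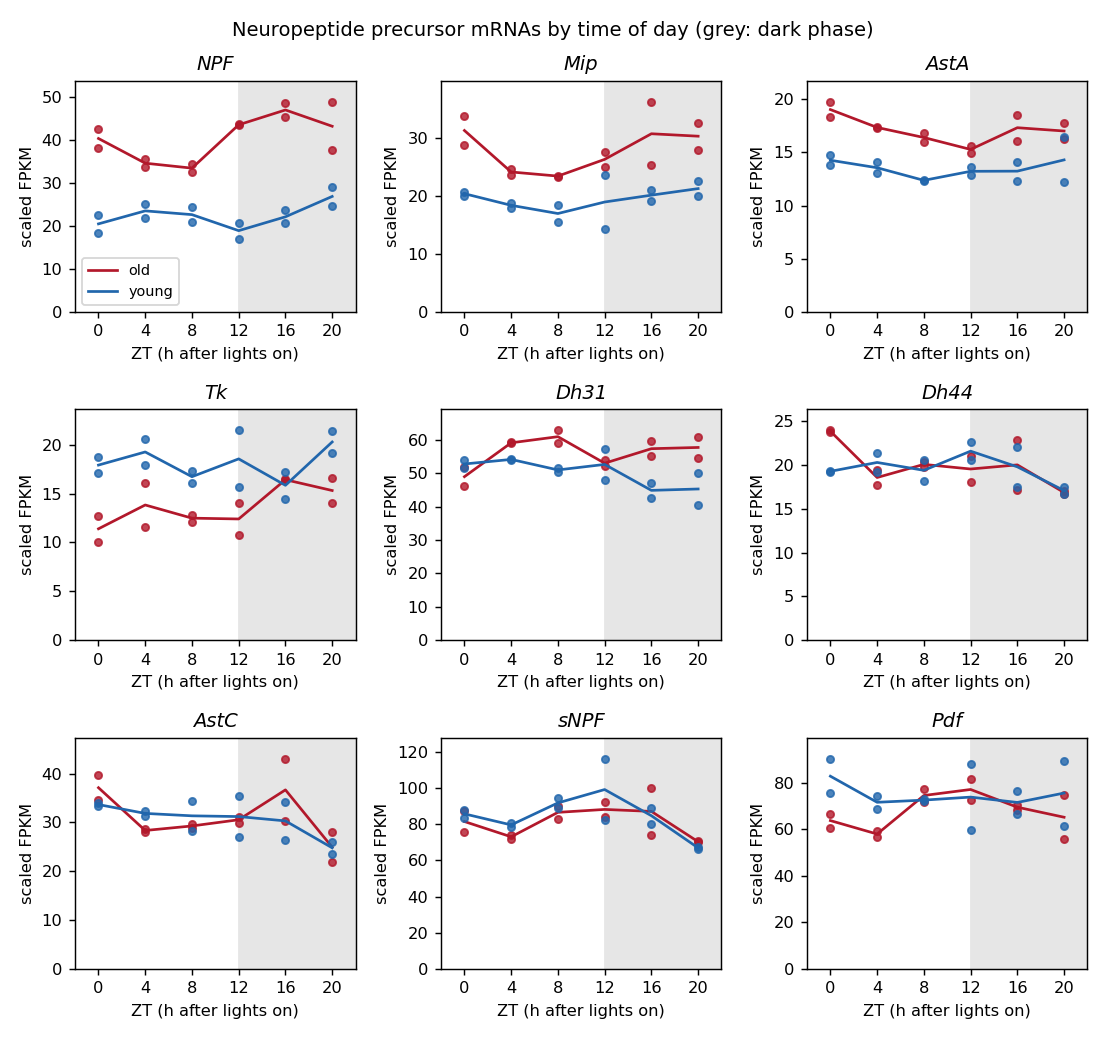
Scaled FPKM (y axis, from 0) of each precursor by time of day (x axis, ZT in hours), old in red and young in blue, with a point per library, a line through the mean of the 2 replicates and the dark phase in grey. Old NPF runs between 33.4 at ZT 8 and 47.0 at ZT 16, and the Tk curves meet at ZT 16.

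NPF in old heads was at 38.2 and 42.5 scaled FPKM at ZT 0, 33.7 and 35.5 at ZT 4, 34.4 and 32.5 at ZT 8, 43.4 and 43.7 at ZT 12, 45.4 and 48.6 at ZT 16 and 48.8 and 37.6 at ZT 20. All 4 libraries of ZT 4 and ZT 8 were lower than all 8 others. The fitted log2 amplitude was 0.23 with a peak at ZT 17.2 (limma adjusted P = 0.0324, ratio of highest to lowest 1.504). In young heads the means of the same times were 20.5, 23.5, 22.6, 18.9, 22.1 and 26.9, the fitted amplitude was 0.10 and the test was not passed (limma adjusted P = 0.613).

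This call was a narrow one. The ratio of highest to lowest stood at the limit, and the call was lost with time of day as a factor (limma adjusted P = 0.0827). It was also lost without any 1 of 8 single old libraries (limma adjusted P between 0.0535 and 0.0838). These were both libraries of ZT 4, ZT 8 and ZT 12, the second-cycle library of ZT 16 and the first-cycle library of ZT 20. Calls over all genes fell as well in those 8 fits, to between 509 and 700, against 913 with all libraries. Without either daily cycle 0 genes were called in old heads, so the loss of the NPF call there says nothing about NPF in particular. The difference in rhythm between the ages, tested by interaction terms between age and the 24 h harmonic, was called for 0 of 9 members, beside 0.344% of all genes, and 0 of 9 had an unadjusted P of 0.05 or less, beside 6.35% of all genes. For NPF the interaction had an unadjusted P of 0.0772 (limma adjusted P = 0.831). With time of day as a factor, NPF (unadjusted P = 0.0215) and Dh31 (unadjusted P = 0.0378) passed without adjustment, beside 9.22% of all genes, and 0 of 9 passed with it, beside 0.491%.

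The other daily profiles stayed under the threshold. Mip was lowest at ZT 8 at both ages, with means of 23.4 in old and 17 in young heads, and its fitted peaks were at ZT 19.6 in old and ZT 20.1 in young heads (limma adjusted P = 0.0901 in old and 0.319 in young). AstA ran from 15.3 at ZT 12 to 19 at ZT 0 in old heads and from 12.4 at ZT 8 to 14.3 at ZT 20 in young heads (adjusted P = 0.169 in old and 0.469 in young, limma). Pdf in old heads was lowest at ZT 4 (57.9) and highest at ZT 12 (77.1), with a limma adjusted P of 0.141 and an unadjusted P of 0.0374. Young Pdf differed between replicates at 3 of the times by more than its means differed over the day, with 90.2 and 75.4 at ZT 0, 87.9 and 59.7 at ZT 12, and 89.6 and 61.6 at ZT 20.

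The rhythm calls also moved with the scale, because the scaling factors themselves had a daily course. At each age they peaked at ZT 0 and were lowest at ZT 12, with a range of 0.20 in old and 0.19 in young libraries on the log2 scale, against a largest gap between replicates of 0.029 in old and 0.035 in young. On the values as deposited, 3 members (NPF, AstA and Mip) were called rhythmic in old heads by the same F test, beside 13.6% of genes, and 0 of 9 in young heads, beside 13.8%. An ARSER-type fit, the kind of periodic regression used in the study, was also run. Its calls needed an unadjusted P of at most 0.05 and the same limit of 1.5 on the ratio. On deposited values it called the same 3 in old heads, beside 19.9% of genes, and Mip in young heads, beside 22%. Young AstA and young Dh31 met the limit on P there, but their ratios of 1.40 and 1.37 were too low. On scaled values the fit called NPF in old heads, beside 16.5% of genes, and none in young heads, beside 17.4%. Old AstA and old Pdf met the limit on P on that scale, but their ratios of 1.32 and 1.46 were too low.

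Of the receptors, SPR was the one called rhythmic at both ages, beside 9.73% of all genes in old and 8.33% in young heads. Fits of SPR with libraries left out are not given here. It was called in old heads with a fitted amplitude of 0.21 and a peak at ZT 2.71 (limma adjusted P = 0.04) and in young heads with an amplitude of 0.34 and a peak at ZT 6.09 (limma adjusted P = 0.00487). The interaction with age had an unadjusted P of 0.00415 and was not called after adjustment (limma adjusted P = 0.378).

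Within an age, some precursors varied together across the 12 libraries, which are described here without a test because the libraries share times of day and a common scale. Pearson's r between AstC and Dh44 was 0.81 in old and 0.80 in young libraries. It was 0.68 in old and 0.75 in young libraries between sNPF and AstC, and 0.72 in old and 0.52 in young libraries between NPF and Mip. Between sNPF and Dh44 it was 0.64 in old and 0.75 in young libraries. Other pairs changed sign with age. For AstA with AstC r was 0.58 in old and -0.30 in young libraries, and for AstA with Dh44 0.58 and -0.44. AstC and Dh44 were both highest at ZT 0 in old heads, at 37.1 and 23.8, and both lowest at ZT 20, at 24.9 and 16.8.

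For the 3 members with the smallest adjusted P, the genes with the most similar profile over all 24 libraries were sought among all genes tested. The likeness is Pearson's r of log2(scaled FPKM + 1) and contains the age difference itself. For NPF these were CG2076 (r = 0.954), CG4250 (0.951) and CG6171 (0.949). Within old libraries alone r was 0.82 for CG2076, 0.79 for CG4250 and 0.90 for CG6171, and within young libraries it was 0.69, 0.70 and 0.49 in the same order. For AstA they were CG11052 (0.920), CG8503 (0.890) and smt3 (0.887), and for Mip they were fau (0.937), CG9917 (0.929) and CG4250 (0.925). CG4250 was thus among the nearest genes of both NPF and Mip.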

How the data were processed

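RNA-seq was made from 24 samples of 25 to 50 female heads each. Per the labels and the study's methods, the authors aligned strand-specific poly(A) reads with TopHat2 to BDGP6 (dm6) and computed FPKM per gene with Cuffdiff, deposited as 2 tables, 1 per age, with the 12 libraries listed by hour. Hours 0 to 20 were taken as the first and hours 24 to 44 as the second daily cycle, which are separate biological replicates. The setting by which Cuffdiff normalized between libraries is not given in the sources used here. The tables also hold the authors' periodicity results (P and q values, phase and period), which were not used. FPKM keeps no read numbers, so absolute depth is unknown and no counting interval is given. The steps between low values gave a relative depth with a 1.504-fold range over libraries.

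Leaving out 235 pre-microRNA hairpins, each library was scaled by its median ratio to the geometric mean library over 9159 genes. R 4.3.3 with limma 3.58.1 (eBayes with trend) was run on log2(scaled FPKM + 1), where a fold change understates that of low genes. The age effect was fitted over all 24 libraries in genes averaging over 1 FPKM at either age, and the rhythm within an age and its interaction with age by 24 h cosine and sine terms in genes whose median was 1 FPKM or more. P values were adjusted by Benjamini-Hochberg over all genes tested. The harmonic fit replaced the study's periodicity test as the main one, and an ARSER-type fit was an alternative. The harmonic fit gives the 2 libraries of a time the same place in the day and removes no trend across the 2 cycles. Its error is the deviation from the fitted curve. Among the rhythm fits, the one with time of day as a factor takes its error from the spread between the 2 libraries of a time.

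The genes named are the 9 members, their 13 receptors, up to 4 called genes of each other list with the smallest adjusted P (for cell type markers at most 2 genes), and the 3 nearest genes of 3 members. Capa, Crz, Hug, amn, Ilp2, Ilp5, SIFa, Proc, Phm and trp were named after their values were seen. The members and lists were chosen with earlier results of these data known. The alternatives were other scalings, a pseudocount of 0.1, filters, time of day as a factor, the cycle as a block, and leaving out each library or cycle. A length adjustment in 20 bins and the ARSER-type fit on scaled values were added after seeing the data. Simulated data for 9771 genes had independent normal noise at the spread within each age and time. Differences between times of day were thus left out of the noise. With 200 genes changed by a log2 value of 0.5, the age test recovered 164 and called 1 other. The rhythm test recovered 156 and called 14 others, and the interaction test recovered 130 and called 6 others. The largest fitted amplitude of a member was 0.23 (NPF in old heads), so recovery of rhythms as weak as those of the members was not measured. Coordinates and exon lengths are from the BDGP6 annotation. Python 3.11.15 with pandas 2.3.3 and matplotlib 3.10.9 was used.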

Additional observations from a re-analysis of the deposited data

How the results depend on the processing

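NPF and Mip kept their direction and their call in the age test under every alternative run, and AstA did so except without the second cycle. On deposited values the members called were 5 higher and 0 lower with 5 receptors lower, and the changes of direction were Pdf at 0.090 and sNPF at 0.17. Scaled to the neuron markers they were 9 higher and 0 lower, with 0 receptors lower and 6 higher, and the changes of direction were Pdf at 0.55, sNPF at 0.63 and Tk at 0.26. With the length adjustment AstC was at -0.072 and Dh44 at -0.030, neither called. The causes of these shifts were not tested beyond the scale itself. Leaving out single libraries or a cycle gave 2 to 4 members higher, 0 to 1 lower, 5 to 8 receptors lower, 0 higher, and 0 to 2 members rhythmic in old heads. It moved sNPF between -0.14 and 0.026, AstC between -0.023 and 0.063 and Dh44 between -0.012 and 0.033. Calls over all genes fell too. Without the first cycle 1129 of 9780 genes were called lower with age, against 2058 of 9771 with all libraries. Without either cycle 0 genes were called rhythmic in old heads. Rhythmic members in old heads numbered 3 on deposited values, 3 by the ARSER-type fit on them and 0 with time of day as a factor, and in young heads 1 by that fit.

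The 2 daily cycles do not pair the samples. Over 66 pairs of times and ages the correlation of deviations from the group means ran from -0.32 to 0.32, with a median of -0.020 and 11 pairs over 0.1. With the cycle as a replicate block, 1953 genes were called higher and 2037 lower in old heads, against 1996 and 2058 without it, and no call of a member changed. Over all genes the deposited scale gave 4264 higher and 1064 lower, and scaling to the neuron markers 7906 higher and 201 lower. Depth is unknown, so small differences in low receptors such as NPFR are limited by a precision that only the spread between libraries shows.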

Other observations

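Other neuropeptide precursors also differed with age in both directions. Of 27 listed, 19 were tested, 6 were higher in old heads (Orcokinin, Ms, FMRFa, Crz, Hug and amn), 5 were lower (Ilp2, Ilp3, Ilp5, SIFa and Proc) and 8 were not called, with a median log2 fold change of -0.0027, beside 20.4% of all genes higher and 21.1% lower. Orcokinin was at 46.2, 62.2 and 68.1 scaled FPKM (lowest, median, highest) in old libraries and at 22.4, 30.7 and 38.3 in young libraries, without overlap (log2 fold change 0.97, limma adjusted P = 2.33e-09). Ms, the precursor of myosuppressin, was the most abundant of the 19 per unit length in old heads, at 208, 263 and 281 in old and 154, 182 and 206 in young libraries (log2 fold change 0.51). FMRFa was at 6.14, 7.45 and 8.89 in old and 3.60, 4.49 and 5.79 in young libraries (log2 fold change 0.60). Crz, the precursor of corazonin, averaged 62.9 ± 12.5 in old and 34.4 ± 5.85 in young heads (SD, n = 12 each).

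The 3 insulin-like peptides of the insulin-producing neurons that were tested were all lower in old heads. Ilp2 averaged 113 in old and 190 in young heads, Ilp3 averaged 4.11 in old and 9.11 in young heads, and Ilp5 averaged 4.14 in old and 11.0 in young heads, with log2 fold changes of -0.74, -0.96 and -1.24. The ranges of the 2 ages overlapped for each, since 11, 10 and 11 of 12 old libraries lay below the lowest young one. Ilp2 and Ilp3 each overlap CG32052, which can share their reads where the strand is the same, as for Ilp2.

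Capa, the precursor of the capability peptides, had a daily rhythm at both ages, with a fitted log2 amplitude of 0.62 and a peak at ZT 7.81 in old heads (limma adjusted P = 0.000777) and an amplitude of 0.29 and a peak at ZT 4.77 in young heads (limma adjusted P = 0.0158). Its interaction with age had a limma adjusted P of 0.0534 with the 24 h terms, over the threshold, and of 0.0292 when the 6 times were fitted as a factor. Its level overlapped between the ages, at 50.6 to 128 scaled FPKM in old and 52.3 to 91.0 in young libraries. Capa (chr3R:29912991-29914346, minus strand) lies near trp (chr3R:29914521-29920289), a photoreceptor gene on the same strand. The part of trp reads in the Capa values was not tested.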
